A study of Mus musculus with 24 samples.

Results

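The genes described here belong to 10 families of enzymes that build and sulfate the sugar chains of proteins and lipids: the polypeptide GalNAc transferases (Galnt), 4 kinds of sialyltransferase (St3gal, St6gal, St6galnac and St8sia), the galactosyltransferases B3galt and B4galt, the B3gnt enzymes that lengthen chains, the fucosyltransferases (Fut) and the carbohydrate sulfotransferases (Chst). Members were the genes whose name on the array began with one of these family names, whatever their level, which also took in B3gntl1 and the pseudogene Fut4-ps1. The array held 79 of them among 27597 gene names, measured by 138 of 41174 probes. Where a gene had several probes, as 44 members did, the brightest stood for it.

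The cells were N1E-115, a neuroblastoma line from the mouse that serves as a model for neurons, and their RNA was hybridised to 12 Agilent 2-colour arrays on 3 slides. Untransfected cells (WT) were compared with cells transfected with a fusion of transcobalamin, the plasma carrier of cobalamin, to oleosin, the coat protein of plant oil bodies. TO has transcobalamin joined by its N-terminal side and binds cobalamin (Cbl) with high affinity, and OT has it joined by its C-terminal side and shows no detectable binding. The comparisons ask how the cobalamin-binding fusion changes the cells in each medium, with OT and WT as references.

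The 6 groups had 4 samples each. WT-p, TO-p and OT-p were grown in proliferation medium with 10% fetal calf serum. WT-d, TO-d and OT-d were grown in differentiation medium with 2.5% serum and 1.25% DMSO. The labels name no other agent, and the promoter that drives the fusions, the number of clones behind each transfected line and the time in medium are not given in the sources used here. The design text calls the samples biological replicates without saying whether they were separate cultures, so each p-value reflects the spread among the samples at hand, which may be technical. Each group carried 1 sample whose tube label repeats the number of another tube of its group with a "b" added, and results were also computed without these 6 samples.

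In mucin-type O-glycosylation, Galnt enzymes place the first sugar, GalNAc, on serine or threonine, other enzymes add galactose, and St3gal and St6galnac enzymes cap the chain with sialic acid. N-glycans and glycolipids are built on other bases but end in similar caps of galactose, GlcNAc, fucose, sialic acid and sulfate, laid on in the Golgi. In neurons the products include gangliosides and the polysialic acid of the cell adhesion molecule Ncam1. The chondroitin and keratan sulfates that Chst enzymes modify line the cell surface and matrix.

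All 24 samples lay nearest to their own group's mean profile. The share of spots above background ran from 54.3% to 65.9%, and the number of arrays limits the precision. The labelled cell type was borne out by its markers, since all 8 sympathoadrenal markers, such as Phox2a and Dbh, and all 6 neuronal markers were above background in all 24 samples. Of the markers of other cells, Ptprc, Itgam and Cdh5 of blood and endothelium and Epcam, Cdh1 and Krt18 of epithelium were above background in no sample. Of the others on these lists, Hba-a1 was above background in all 24 samples, Krt8 in 21 and Cd68 and Pecam1 in 6 each. The summed log2 level of the 6 blood and endothelial markers on the array ran from 9.07 to 9.14 in OT-p and from 9.20 to 10 in the other groups, and that of the 4 epithelial markers from 8.13 to 8.5. The glial markers Mbp, S100b and Sox10 and the fibroblast collagens Col1a1 and Col1a2 were above background in every sample, and the summed level of the 7 glial markers ran from 9.75 to 10.4 in proliferation medium and from 10.3 to 11.3 in differentiation medium, on the log2 scale. The part of these markers in the results below was not tested. In such bulk samples, fewer cells of a type and less RNA per cell cannot be told apart.

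A gene entered the tests if 1 or more of the 6 groups had it well above background in each of 4 samples, which held for 53 of the 79 members and for 16240 genes in all. Of these 53, 41 were above background in all 24 samples, and the other 12 were not in some. Those 12 entered through the groups in which they were high enough, so counts over the 53 are no estimate for the whole families. Of the 26 untested members, 12 were above background in no sample, among them the polysialyltransferase St8sia4, the sulfotransferases Chst2, Chst7 and Chst9 and the sialyltransferase St3gal6. The polysialyltransferase St8sia2 was above background in 6 of 24 samples, 1 in each group.

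A gene was called at an adjusted p under 0.05, from limma with Benjamini-Hochberg adjustment over all genes tested. In proliferation medium, 29 of 53 members differed between TO and OT (54.7%), 15 higher and 14 lower in TO, against 56.3% of all genes (30% higher and 26.3% lower). The corresponding counts in differentiation medium were 9 higher and 16 lower in TO, or 47.2% of members against 39.8% of all genes (19% higher and 20.9% lower). Against WT-p, TO-p had 12 members higher and 8 lower (37.7% against 35% of all genes, 19.1% higher and 15.9% lower), and OT-p had 13 of each (49.1% against 44.7%, 20.6% higher and 24.1% lower). Against WT-d, TO-d had 12 higher and 15 lower (50.9% against 46.7%, 23% higher and 23.7% lower), and OT-d had 16 higher and 12 lower (52.8% against 51.8%, 26.6% higher and 25.2% lower). The median log2 change of the members lay between -0.07 and 0.02 over these 6 comparisons, and that of all genes between -0.03 and 0.02. These shares are near the background, and 47 of 53 (88.7%) were called in at least 1 of the 9 pairwise comparisons, as were 91.9% of all genes.

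The differentiation medium raised more members than it lowered in each line. In WT, 20 rose and 12 fell (60.4% of members against 66.8% of all genes, of which 35.9% rose and 30.8% fell). In TO, 15 rose and 6 fell (39.6% against 52.4%, with 26.5% rising and 25.9% falling). In OT, 23 rose and 10 fell (62.3% against 67.5%, with 36.4% rising and 31.1% falling). The median log2 change of the 53 members was 0.08 in WT, 0.05 in TO and 0.07 in OT, beside 0.06, 0.00 and 0.04 for all genes tested. In WT the balance turned under loess normalization without a step between arrays, where 44.4% of the members called were higher in place of 62.5%.

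The picture differed for large changes. Counting called genes with a change of at least 2-fold, 8 of 53 members (15.1%) differed between OT-p and WT-p, against 2.19% of all genes, and 8 (15.1%) between TO-p and OT-p, against 7.17%. Between OT-d and WT-d the count was 5 (9.43% against 4.26%), and between TO-p and WT-p it was 1 (1.89% against 1.5%). With the medium, 3 members passed 2-fold in WT (5.66% against 15% of all genes), 0 in TO (0% against 7.1%) and 8 in OT (15.1% against 17%). Over 19 alternative settings the count between OT-p and WT-p lay between 6 and 9, while that of all genes lay between 1.29% and 5.49%. The medium counts moved more, with 2 to 10 members in WT (8.87% to 25% of all genes), 0 to 2 in TO (4.2% to 12.7%) and 6 to 17 in OT (9.99% to 25.7%), so in OT the members' share was not below that of all genes under every setting. The count was 7 to 13 between TO-p and OT-p (4.2% to 13.7% of all genes), 4 to 7 between OT-d and WT-d (2.55% to 10.2%) and 0 to 5 between TO-p and WT-p (0.884% to 4.09%). These comparisons share samples, so they are not independent of one another.

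The response to the medium was also compared between lines, as a difference of differences. It differed between TO and OT for 19 members, larger in TO for 5 and smaller for 14 (35.8% against 40.3% of all genes, 17.4% larger and 22.9% smaller). Between TO and WT it differed for 6 and 8 (26.4% against 36.5%, 17.6% larger and 18.9% smaller), and between OT and WT for 16 and 5 (39.6% against 35%, 20.4% larger and 14.6% smaller). Here larger means the more positive change.

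**Figure D1:**
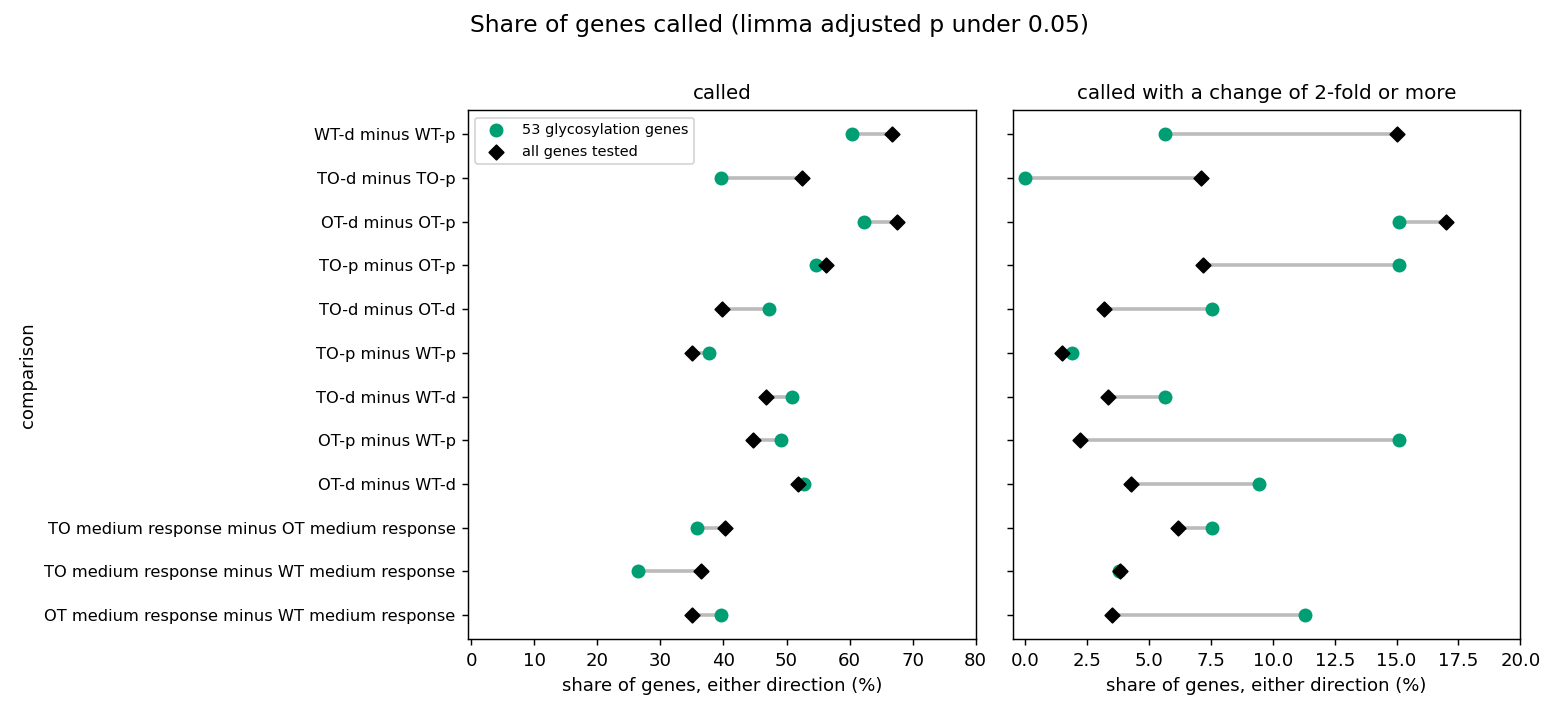
Share of genes called in each comparison (x axis, %) for the 53 tested members (green circles) and for all 16240 genes tested (black diamonds), at an adjusted p under 0.05 (left) and with a change of 2-fold or more as well (right). On the left, the circles lie near the diamonds for the comparisons of lines within a medium. They lie lower for the medium in TO (39.6% against 52.4%) and for the TO less WT responses (26.4% against 36.5%). On the right, the members reach 15.1% between OT-p and WT-p against 2.19% of all genes.

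The normalization matters for the balance of directions. With loess alone, the share of called members that were higher moved from 36.0% to 50% for TO-d against OT-d, from 60.0% to 44.4% for TO-p against WT-p, from 44.4% to 72.7% for TO-d against WT-d, from 50% to 31.6% for OT-p against WT-p and from 57.1% to 68.0% for OT-d against WT-d. That setting also moved the median of all genes by up to 0.169 on the log2 scale. With the scanner's processed signals the share for TO-d against WT-d was 33.3%, and several changes of dim members were over 1.5 times as large on the log2 scale: TO-d against OT-d was -3.77 in place of -2.47 for B3galt5, TO-d against WT-d was 2.03 in place of 1.31 for Chst13, and the rise of Fut7 in OT was 2.20 in place of 1.17.

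Of the 14 members called with a 2-fold change in at least 1 pairwise comparison, 4 start O-glycans. Galntl2, now named Galnt15 and measured by a probe at chr14:30891133-30891192 on the mm8 build, had the largest response to the medium in WT of all 53. Its log2 intensity was 6.70, 8.54, 6.94 and 7.78 in the 4 WT-p samples and 11.07, 11.06, 10.82 and 10.85 in WT-d. It was 8.26, 8.45, 8.62 and 7.50 in TO-p and 8.46, 8.35, 8.30 and 8.48 in TO-d. It was 6.74, 6.81, 6.78 and 6.92 in OT-p and 7.62, 7.34, 7.94 and 7.45 in OT-d. The 4 WT-d samples were above all 20 others, and WT-p was spread over more than 1 log2 unit. The rise in WT was 10.9-fold (log2 change 3.45 ± 0.271 SE, limma adjusted p = 1.85e-10). OT rose by 1.76-fold (0.81 ± 0.242, adjusted p = 0.00503), and TO changed by 0.07 ± 0.255 (adjusted p = 0.859). In differentiation medium TO-d was 5.92-fold and OT-d 9.82-fold below WT-d (adjusted p = 3.31e-07 and 5.99e-10). Within single slides the differences of TO-p and OT-p from WT-p did not keep 1 sign (-0.08 to 1.36 and -1.67 to 0.08).

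Galnt3, which in bone protects the hormone Fgf23 from cleavage, was lowest in OT. Its probe lies at chr2:65884444-65884503. Levels were 10.97, 11.77, 11.13 and 11.33 in WT-p, 11.70, 11.44, 11.81 and 11.41 in TO-p and 9.84, 9.88, 9.68 and 9.78 in OT-p. In differentiation medium they were 10.68, 10.78, 10.93 and 10.76 in WT-d, 11.56, 11.47, 11.20 and 11.34 in TO-d and 10.55, 10.43, 10.49 and 10.35 in OT-d. All 8 OT samples were below all 16 others. OT-p was 2.83-fold below WT-p (-1.50 ± 0.11 SE, adjusted p = 4.97e-10) and 3.53-fold below TO-p (adjusted p = 3.83e-11). The medium narrowed this gap: Galnt3 fell in WT (-0.52 ± 0.131, adjusted p = 0.00128) and rose in OT (0.65 ± 0.117, adjusted p = 3.09e-05), and the responses differed (adjusted p = 1.14e-05). OT-d was below WT-d by 1.25-fold (adjusted p = 0.0321), a call that was lost in 5 of the 8 fits that left out 1 sample. The other Galnt3 probe gave changes of the same size.

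Galnt5 went the other way in proliferation medium. It is measured by a single probe at chr2:57861023-57861082. Levels were 9.34, 8.02, 8.6 and 8.65 in WT-p, 7.38, 7.69, 7.80 and 8.35 in TO-p and 10.87, 10.66, 10.56 and 10.48 in OT-p, and OT-p lay above all samples of both other groups. OT-p exceeded WT-p by 3.75-fold (1.91 ± 0.404 SE, adjusted p = 0.000517) and TO-p by 7.93-fold (adjusted p = 5.45e-06). In differentiation medium the values were 7.91, 9.78, 7.79 and 8.13 in WT-d, 6.95, 7.20, 7.78 and 7.05 in TO-d and 9.45, 9.39, 7.17 and 9.37 in OT-d. The high WT-d sample (replicate 2) and the low OT-d sample (replicate 3) shared an array, and each stood nearer to the level of the other's group. With dyes of an array fitted as a pair, the fitted difference between OT-d and WT-d (-0.11 ± 0.45 SE, adjusted p = 0.849) has the opposite sign to the difference of the group means, 8.85 in OT-d and 8.40 in WT-d. The fall in OT with the medium, 4.03-fold (adjusted p = 0.000231), kept its call without any 1 sample (log2 changes of -2.49 to -1.37). TO-d against WT-d was -1.56 (adjusted p = 0.0155) and was -0.74 (adjusted p = 0.165) without WT-d replicate 2 and -1.36 (adjusted p = 0.065) without TO-d replicate 1. TO-d against OT-d was -1.45 (adjusted p = 0.0188) and ran from -2.12 to -1.10 when 1 sample was left out, with the call lost without any of TO-d replicates 1 and 4 and OT-d replicates 1, 2 and 4.

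Galnt11, which glycosylates Notch1, rose with the medium in all 3 lines. Its levels were 11.67, 11.98, 11.84 and 12.16 in WT-p and 12.91, 12.56, 13.04 and 13.08 in WT-d. They were 11.80, 12.04, 12.04 and 11.77 in TO-p and 12.54, 12.35, 12.35 and 12.64 in TO-d, and 12.22, 12.06, 11.80 and 11.97 in OT-p and 13.01, 13.12, 13.12 and 13.31 in OT-d. Every differentiation sample was above every proliferation sample. The rise was 1.87-fold in WT, 1.44-fold in TO and 2.26-fold in OT (adjusted p = 1.39e-07, 0.000121 and 2.22e-10), and it was smaller in TO than in OT (difference -0.64, adjusted p = 0.00124). The other of its 2 probes was too dim to be tested, and with the mean of both the rises were 0.51, 0.27 and 0.60 on the log2 scale (adjusted p = 1.65e-06, 0.00156 and 2.37e-08), none of them 2-fold. The widely expressed Galnt2 showed no call in any pairwise comparison (largest log2 change 0.21), and neither did Galnt13. Galnt1 was called in all 9, with changes of at most 0.76 in size.

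**Figure D2:**
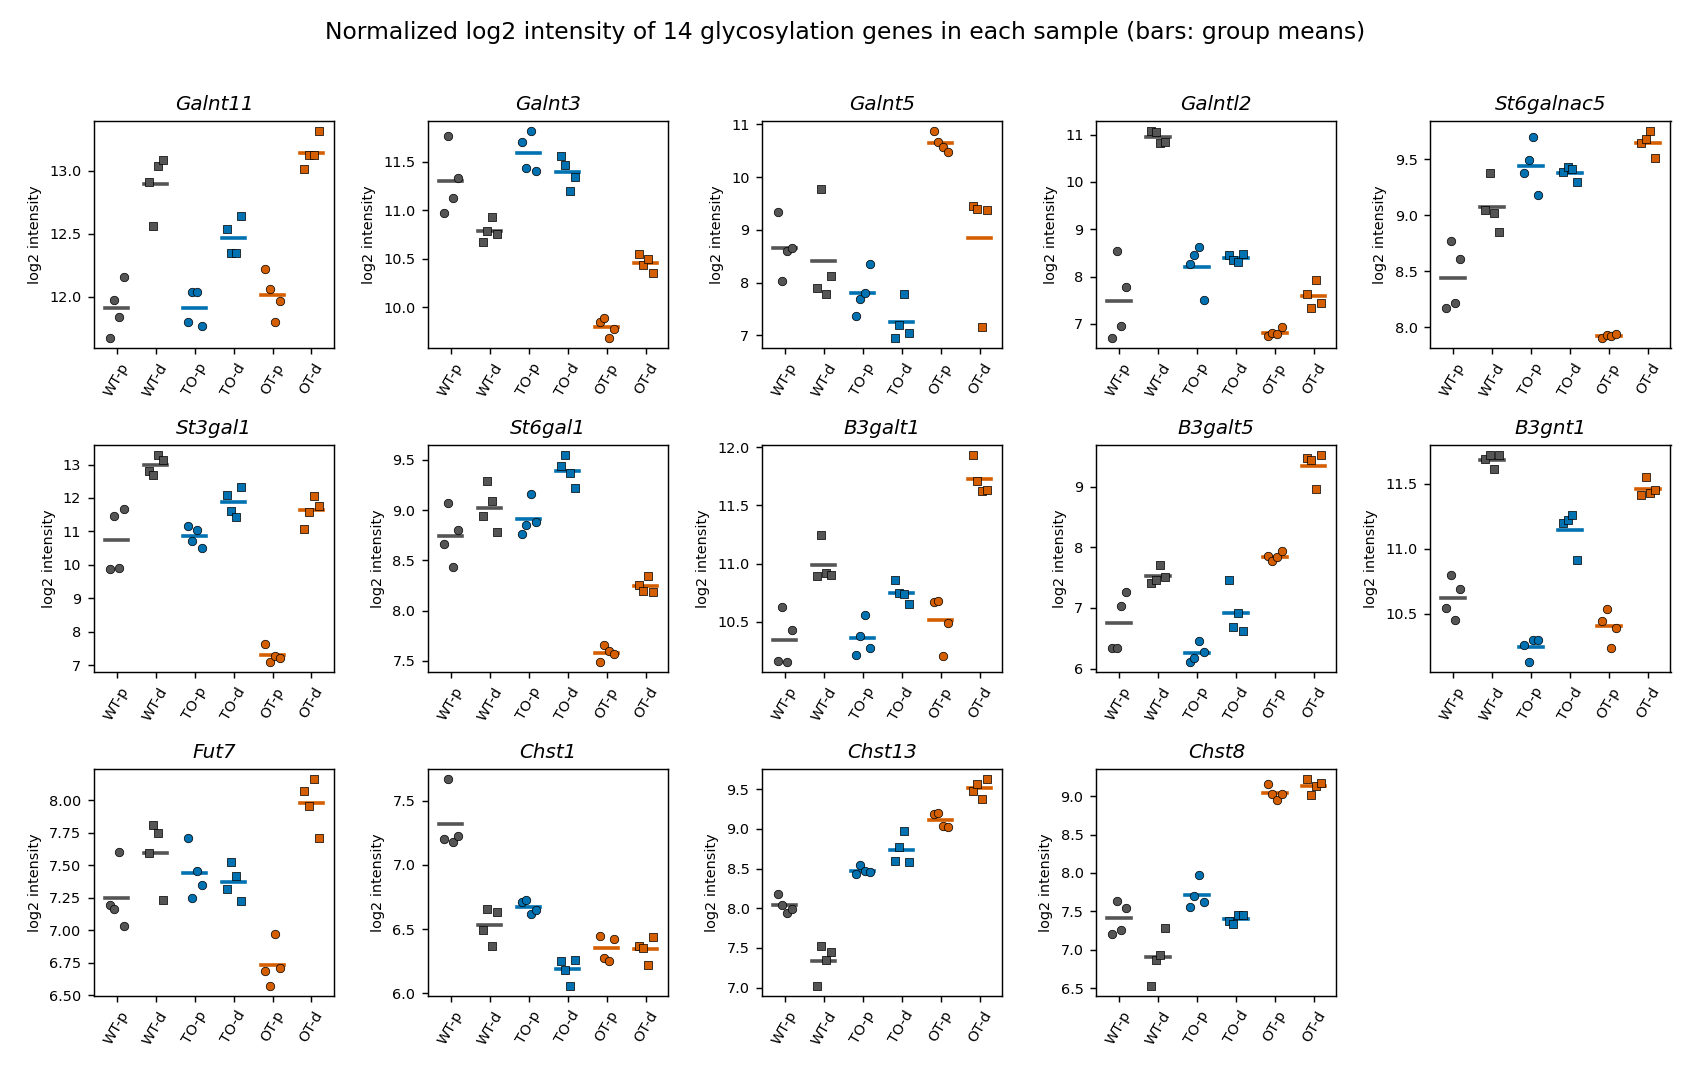
Normalized log2 intensity (y axis, own scale in each panel) of the 14 members called with a 2-fold change in at least 1 pairwise comparison, in each of the 24 samples (points) with the group means (bars), for WT (grey), TO (blue) and OT (orange) in proliferation (circles) and differentiation medium (squares). OT samples stand below all others for Galnt3 and St6gal1 and above all others for B3galt5, Chst8 and Chst13.

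Among the sialyltransferases, St3gal1, which caps the galactose of the core 1 O-glycan, had the largest changes of all members. Its single probe lies at chr15:66936001-66936060. Levels were 9.89, 11.47, 9.90 and 11.67 in WT-p, 11.16, 10.71, 11.04 and 10.51 in TO-p and 7.64, 7.10, 7.28 and 7.21 in OT-p. In differentiation medium they were 12.81, 12.68, 13.28 and 13.15 in WT-d, 12.08, 11.62, 11.44 and 12.33 in TO-d and 11.07, 11.59, 12.07 and 11.77 in OT-d. OT-p stood below all 20 other samples, and the WT-p samples split into a low and a high pair, the low pair being tubes 1 and 1b. OT-p was 10.7-fold below WT-p (-3.42 ± 0.294 SE, limma adjusted p = 5.13e-09), whereas TO-p against WT-p was 0.28 ± 0.311 (adjusted p = 0.537). The medium raised St3gal1 21.7-fold in OT (4.44 ± 0.311, adjusted p = 1.32e-11), 4.47-fold in WT (adjusted p = 9.65e-06) and 1.85-fold in TO (adjusted p = 0.0265). The rise in TO was lost without TO-p replicate 2 or 4 or TO-d replicate 4 (lowest 0.57, adjusted p = 0.265) and was 0.42 (adjusted p = 0.434) without the samples marked b. In differentiation medium TO-d against OT-d was 0.15 ± 0.348 (adjusted p = 0.77), and OT-d and TO-d lay below WT-d by 2.21-fold and 1.99-fold (adjusted p = 0.00572 and 0.0323), the latter call being lost without any 1 of WT-d replicates 3 and 4 and TO-d replicates 1 and 3 (-1.25 to -0.90 over all such fits). That call was also lost with loess alone (-0.69, adjusted p = 0.163), with the slide as a covariate (-0.78, adjusted p = 0.0822) and with a replicate block (-0.93, adjusted p = 0.0562).

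St3gal2, which acts on gangliosides, rose in the 3 lines by its brighter probe, 1.98-fold in WT, 1.89-fold in TO and 1.72-fold in OT (adjusted p = 1.91e-11, 3.65e-11 and 8.19e-11). Its values lay between 10.61 and 11.04 in the 12 proliferation samples and between 11.61 and 11.93 in the 12 differentiation samples. The dimmer of its 2 probes, at a mean level of 6.88 against 11.34, disagrees, with log2 changes of -0.36 in WT, 0.11 in TO and -0.15 in OT (adjusted p over all probes = 0.00125, 0.302 and 0.0955). With the mean of both probes the rises were 0.31, 0.51 and 0.31 (adjusted p = 0.000162, 2.46e-07 and 4.46e-05). St3gal4 fell in each line, by at most 0.78. St3gal5, the GM3 synthase at the root of the gangliosides, was called in 3 comparisons, with no change over 0.29 and none with the medium.

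St6gal1, the enzyme that sialylates galactose at the ends of N-glycans, was low in OT. Its brightest probe, at chr16:23275298-23275357, read 8.66, 9.07, 8.44 and 8.80 in WT-p, 8.76, 8.86, 9.16 and 8.88 in TO-p and 7.49, 7.66, 7.60 and 7.57 in OT-p. In differentiation medium the values were 8.94, 9.28, 9.09 and 8.78 in WT-d, 9.44, 9.55, 9.37 and 9.21 in TO-d and 8.25, 8.19, 8.34 and 8.18 in OT-d. The 8 OT samples were below the 16 others. OT-p was 2.26-fold below WT-p and 2.6-fold below TO-p (adjusted p = 1.62e-09 and 2.23e-10). In differentiation medium OT-d was 1.77-fold below WT-d and 2.28-fold below TO-d (adjusted p = 8.36e-07 and 1.37e-08). The other St6gal1 probe, at a mean level of 6.69 against 8.65 for the brighter, did not show this difference (log2 -0.03 for TO-p against OT-p, adjusted p over all probes = 0.82), so the 2 probes disagree. With the mean of both, TO-p against OT-p was 0.68 (adjusted p = 1.87e-08).

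St6galnac5, which makes gangliosides of the alpha series in brain, had its widest differences between lines in proliferation medium. Its probe is at chr3:152758504-152758563. Levels were 8.18, 8.77, 8.22 and 8.61 in WT-p, 9.38, 9.49, 9.70 and 9.18 in TO-p and 7.90, 7.93, 7.92 and 7.94 in OT-p. They became 9.05, 9.38, 9.02 and 8.86 in WT-d, 9.38, 9.43, 9.41 and 9.30 in TO-d and 9.64, 9.69, 9.75 and 9.51 in OT-d. The proliferation groups did not overlap, in the order TO-p, WT-p, OT-p. TO-p was 2.01-fold above WT-p (1.01 ± 0.11 SE, adjusted p = 2.64e-07) and OT-p 1.41-fold below it (adjusted p = 0.000445). OT rose 3.17-fold with the medium and WT 1.54-fold (adjusted p = 4.72e-12 and 0.000115), while TO changed by -0.12 ± 0.115 (adjusted p = 0.436). The responses of TO and OT differed by -1.78 (adjusted p = 5.18e-08). Both probes of the gene gave this pattern. Of the St8sia family, St8sia1, the GD3 synthase, rose in WT and OT (0.68 ± 0.149 and 0.81 ± 0.134, adjusted p = 0.000365 and 1.19e-05) and was 0.31 ± 0.141 in TO (adjusted p = 0.0662). Of its 3 probes, 2 were bright enough to be tested, and they disagree: the dimmer one, at a mean level of 6.94 against 7.07, fell by 0.32 in WT, 0.34 in TO and 0.20 in OT (adjusted p over all probes = 0.00116, 0.000506 and 0.0156). With the mean of the gene's probes the change was 0.14 in WT (adjusted p = 0.102) and 0.20 in OT (adjusted p = 0.0109).

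**Figure D3:**
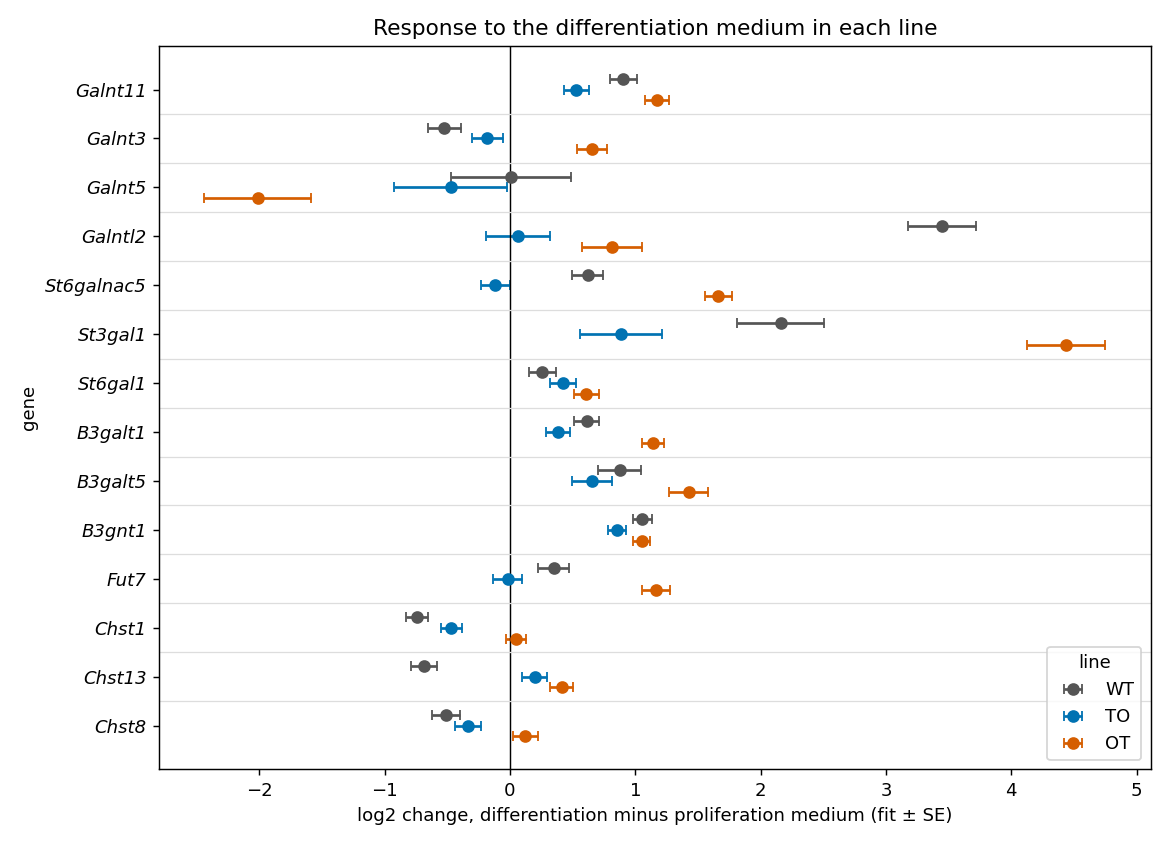
Fitted log2 change from proliferation to differentiation medium (x axis, points with SE bars) in WT (grey), TO (blue) and OT (orange) for the 14 members, ordered by family. St3gal1 rose most in OT (4.44) and least in TO (0.89), while Galntl2 rose by 3.45 in WT and was at 0.07 in TO.

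The galactosyltransferase B3galt5 builds type 1 chains. It was high in OT. Its probe, at chr16:96424642-96424701, read 6.33, 6.34, 7.03 and 7.27 in WT-p, 6.11, 6.17, 6.46 and 6.27 in TO-p and 7.86, 7.77, 7.83 and 7.94 in OT-p. The differentiation values were 7.41, 7.46, 7.71 and 7.50 in WT-d, 7.45, 6.69, 6.92 and 6.61 in TO-d and 9.47, 9.43, 8.96 and 9.52 in OT-d. All 8 OT samples were above the 16 others, and TO-p was not well above background in any sample. OT-p was therefore at least 3.01-fold above TO-p, which is the mean of OT-p less the mean of TO-p with each value raised to the dimmest level measured above background in its sample (adjusted p = 8.77e-09). OT-d was 5.52-fold above TO-d and 3.4-fold above WT-d (adjusted p = 1.49e-10 and 8.64e-09), and OT-p 2.33-fold above WT-p (adjusted p = 6.23e-07). The medium raised it in OT (1.43 ± 0.155) and in WT (0.88 ± 0.173, adjusted p = 2.25e-08 and 0.000117). In TO the fitted log2 change was 0.65 (adjusted p = 0.00161), and it ran from 0.45 to 0.88 when 1 sample was left out. With TO-p not above background, the size of the rise in TO was not settled. With the scanner's processed signals, OT-p against WT-p was 2.53 in place of 1.22 on the log2 scale. The rise in WT was 2.00 in place of 0.88 with these signals, so both sizes were not settled either.

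B3galt1, another enzyme that adds galactose to GlcNAc, also rose with the medium in each line, by 2.21-fold in OT, 1.53-fold in WT and 1.31-fold in TO (adjusted p = 1.06e-10, 1.32e-05 and 0.00146). Levels were 10.16, 10.62, 10.15 and 10.43 in WT-p, 10.22, 10.38, 10.56 and 10.27 in TO-p and 10.67, 10.68, 10.21 and 10.49 in OT-p. In differentiation medium they were 10.89, 11.24, 10.92 and 10.90 in WT-d, 10.86, 10.75, 10.74 and 10.66 in TO-d and 11.93, 11.71, 11.62 and 11.63 in OT-d. The proliferation groups overlapped, and OT-d was above WT-d and TO-d. Its 3 probes gave this direction alike, with rises in OT of 0.59 to 1.14.

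Of the B4galt enzymes, B4galt7 adds the first galactose of the linker that carries chondroitin and heparan sulfate. Its level lay between 8.13 and 8.40 in the 8 OT samples and between 8.63 and 9.31 in the other 16. OT-p was 1.52-fold below WT-p and OT-d 1.72-fold below WT-d (adjusted p = 1.7e-08 and 1.15e-09). It had no 2-fold change and is named because its OT samples stood apart, as seen after the values were known. B4galt5 was called in no pairwise comparison.

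B3gnt1, now named B4gat1, takes part in the sugar chain by which dystroglycan binds the matrix. It rose in the 3 lines. Levels were 10.54, 10.80, 10.45 and 10.69 in WT-p, 10.25, 10.13, 10.30 and 10.29 in TO-p and 10.45, 10.53, 10.23 and 10.39 in OT-p. In differentiation medium they were 11.69, 11.72, 11.61 and 11.72 in WT-d, 11.20, 11.22, 11.26 and 10.91 in TO-d and 11.42, 11.55, 11.43 and 11.45 in OT-d. No proliferation sample reached any differentiation sample. The rise was 2.08-fold in WT, 1.81-fold in TO and 2.07-fold in OT (adjusted p = 4.58e-11, 9.04e-10 and 3.65e-12). B3gnt2, the main enzyme of polylactosamine chains, also rose in all 3 lines, by 1.73-fold, 1.58-fold and 1.92-fold. By the brightest probes, these 2, Galnt11, St3gal2 and St8sia1, 5 of 53 members (9.43%), had all 12 differentiation samples above all 12 proliferation samples, against 8.41% of all genes. No member had them all below, against 8.84% of all genes.

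The fucosyltransferase Fut7 completes the sialyl Lewis x cap that selectins bind. Its levels were 7.19, 7.16, 7.60 and 7.03 in WT-p, 7.71, 7.25, 7.45 and 7.35 in TO-p and 6.68, 6.57, 6.97 and 6.71 in OT-p. In differentiation medium they were 7.59, 7.81, 7.75 and 7.23 in WT-d, 7.32, 7.52, 7.41 and 7.22 in TO-d and 8.07, 7.95, 8.16 and 7.71 in OT-d. OT-p was below all other samples, and OT-d overlapped WT-d. Fut7 rose 2.24-fold in OT (adjusted p = 2.2e-09) and was -0.02 ± 0.116 in TO (adjusted p = 0.93), and these responses differed (adjusted p = 8.19e-06). Fut8, which adds the core fucose of N-glycans, was called in 4 comparisons with changes of at most 0.29.

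Chst8, which sulfates GalNAc on pituitary hormones, had its OT samples clear of the rest. Its probe lies at chr7:34383677-34383736. Levels were 7.20, 7.64, 7.26 and 7.54 in WT-p, 7.56, 7.70, 7.97 and 7.62 in TO-p and 9.16, 9.02, 8.95 and 9.03 in OT-p. In differentiation medium they were 6.53, 6.87, 6.93 and 7.28 in WT-d, 7.38, 7.33, 7.45 and 7.45 in TO-d and 9.22, 9.01, 9.13 and 9.17 in OT-d. The lowest OT sample (8.95) was almost 1 log2 unit above the highest other sample (7.97). OT-p was 2.96-fold above WT-p (1.56 ± 0.0934 SE, adjusted p = 1.91e-11) and OT-d 4.58-fold above WT-d (2.20 ± 0.104, adjusted p = 2.59e-13). TO-p was 2.41-fold and TO-d 3.31-fold below OT in the same medium (adjusted p = 7.46e-10 and 3.28e-11).

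Chst13, which sulfates GalNAc of chondroitin, was graded over the lines. Its probe lies at chr6:90274290-90274349. Levels were 8.18, 8.04, 7.94 and 7.99 in WT-p, 8.43, 8.55, 8.46 and 8.46 in TO-p and 9.19, 9.20, 9.03 and 9.03 in OT-p. They were 7.02, 7.53, 7.34 and 7.45 in WT-d, 8.59, 8.77, 8.98 and 8.58 in TO-d and 9.48, 9.57, 9.38 and 9.63 in OT-d. The 8 WT samples were below and the 8 OT samples above all others, with TO between them. TO-d was 2.48-fold and OT-d 4.33-fold above WT-d (adjusted p = 4.81e-09 and 1.96e-13). The medium lowered Chst13 in WT (-0.69 ± 0.104, adjusted p = 4.24e-06) and raised it in OT (0.41 ± 0.0931, adjusted p = 0.000424), and it was 0.20 ± 0.098 in TO (adjusted p = 0.0977).

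Chst1, which sulfates galactose of keratan sulfate, was highest in WT-p. Levels were 7.20, 7.67, 7.18 and 7.23 in WT-p, 6.71, 6.73, 6.62 and 6.65 in TO-p and 6.44, 6.28, 6.25 and 6.42 in OT-p, and 6.49, 6.66, 6.37 and 6.63 in WT-d, 6.25, 6.19, 6.06 and 6.26 in TO-d and 6.37, 6.36, 6.22 and 6.44 in OT-d. It was close to background, being above it in all 4 samples of WT-p and TO-p, in 3 of WT-d, in 2 of OT-d and in 1 each of TO-d and OT-p. The fitted change of OT-p against WT-p was -1.0 ± 0.0737 SE (adjusted p = 4.91e-10), and it was -2.74 (adjusted p = 1.27e-06) with the scanner's processed signals, so its size was not settled. The medium lowered it 1.67-fold in WT (adjusted p = 1.2e-07). It also fell in TO (log2 change -0.47, adjusted p = 4.24e-05), while the change of 0.05 in OT was not called. With processed signals the falls were -1.41 in WT and -1.96 in TO, in place of -0.74 and -0.47, so their sizes were not settled. Chst11, a chondroitin sulfotransferase, rose with the medium in each line, by at most 0.53. Chst3 and Chst4 were called in no pairwise comparison.

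Taking both media together, by the brightest probes, 3 members (5.66%) had all 8 OT samples above the 16 others, B3galt5, Chst13 and Chst8. Another 3 (5.66%) had them all below, B4galt7, Galnt3 and St6gal1. Of all genes tested, 0.887% had them above and 1.31% below. The dimmer St6gal1 probe did not show this difference, with log2 changes of -0.04 for OT-p against WT-p and -0.07 for OT-d against WT-d. For TO no member stood apart in either direction, where 1.03% of all genes were above and 0.856% below. For WT no member was above (0.302% of all genes) and Chst13 was below (1.89% of members against 0.166% of all genes).

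RefSeq promoter sequences (GRCm38.p6) were at hand for 61 of the 79 members. The 150 bases before the annotated start are shown for the members with a single start among those whose OT samples stood apart, and for Galntl2, whose WT-d samples did, so that the differing starts can be seen side by side. They run 5′ to 3′ on the gene's strand, and capitals mark matches, on either strand, to the GC box GGGCGG, the E-box CACGTG, the CRE core TGACGT, the AP-1 site TGANTCA or the TATA box TATAAA. Windows of this length hold them in 28.6%, 4.3%, 5.15%, 4.24% and 7.57% of 32851 RefSeq starts.
Chst8 (chr7:34812712-34812861, minus strand): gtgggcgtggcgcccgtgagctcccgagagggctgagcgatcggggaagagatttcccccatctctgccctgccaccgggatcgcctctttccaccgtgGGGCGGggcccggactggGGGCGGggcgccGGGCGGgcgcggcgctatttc
Chst13 (chr6:90325186-90325335, minus strand): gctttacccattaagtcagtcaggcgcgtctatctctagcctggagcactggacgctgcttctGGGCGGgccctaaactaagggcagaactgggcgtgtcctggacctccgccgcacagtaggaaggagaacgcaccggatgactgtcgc
Galnt3 (chr2:66124794-66124943, minus strand): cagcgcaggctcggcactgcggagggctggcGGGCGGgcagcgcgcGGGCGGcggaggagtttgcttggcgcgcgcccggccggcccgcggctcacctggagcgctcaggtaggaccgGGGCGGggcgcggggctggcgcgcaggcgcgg
B4galt7 (chr13:55599746-55599895, plus strand): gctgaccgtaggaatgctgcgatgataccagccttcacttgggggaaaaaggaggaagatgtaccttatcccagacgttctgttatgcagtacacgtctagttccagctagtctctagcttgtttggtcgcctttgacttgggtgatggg
Galntl2 (chr14:32028953-32029102, plus strand): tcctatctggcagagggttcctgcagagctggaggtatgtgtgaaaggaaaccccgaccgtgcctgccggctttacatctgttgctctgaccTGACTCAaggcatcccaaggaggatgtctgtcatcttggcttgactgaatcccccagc
Chst8, higher in OT, and Galnt3, lower in OT, each had 3 GC boxes in a window of 74% and 82.7% GC, where the median start has 54%. Chst13 had 1 GC box and Galntl2 1 AP-1 match, overlapping no other motif. B4galt7 had none of these letters. A match describes the sequence and shows no binding.

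**Figure D4:**
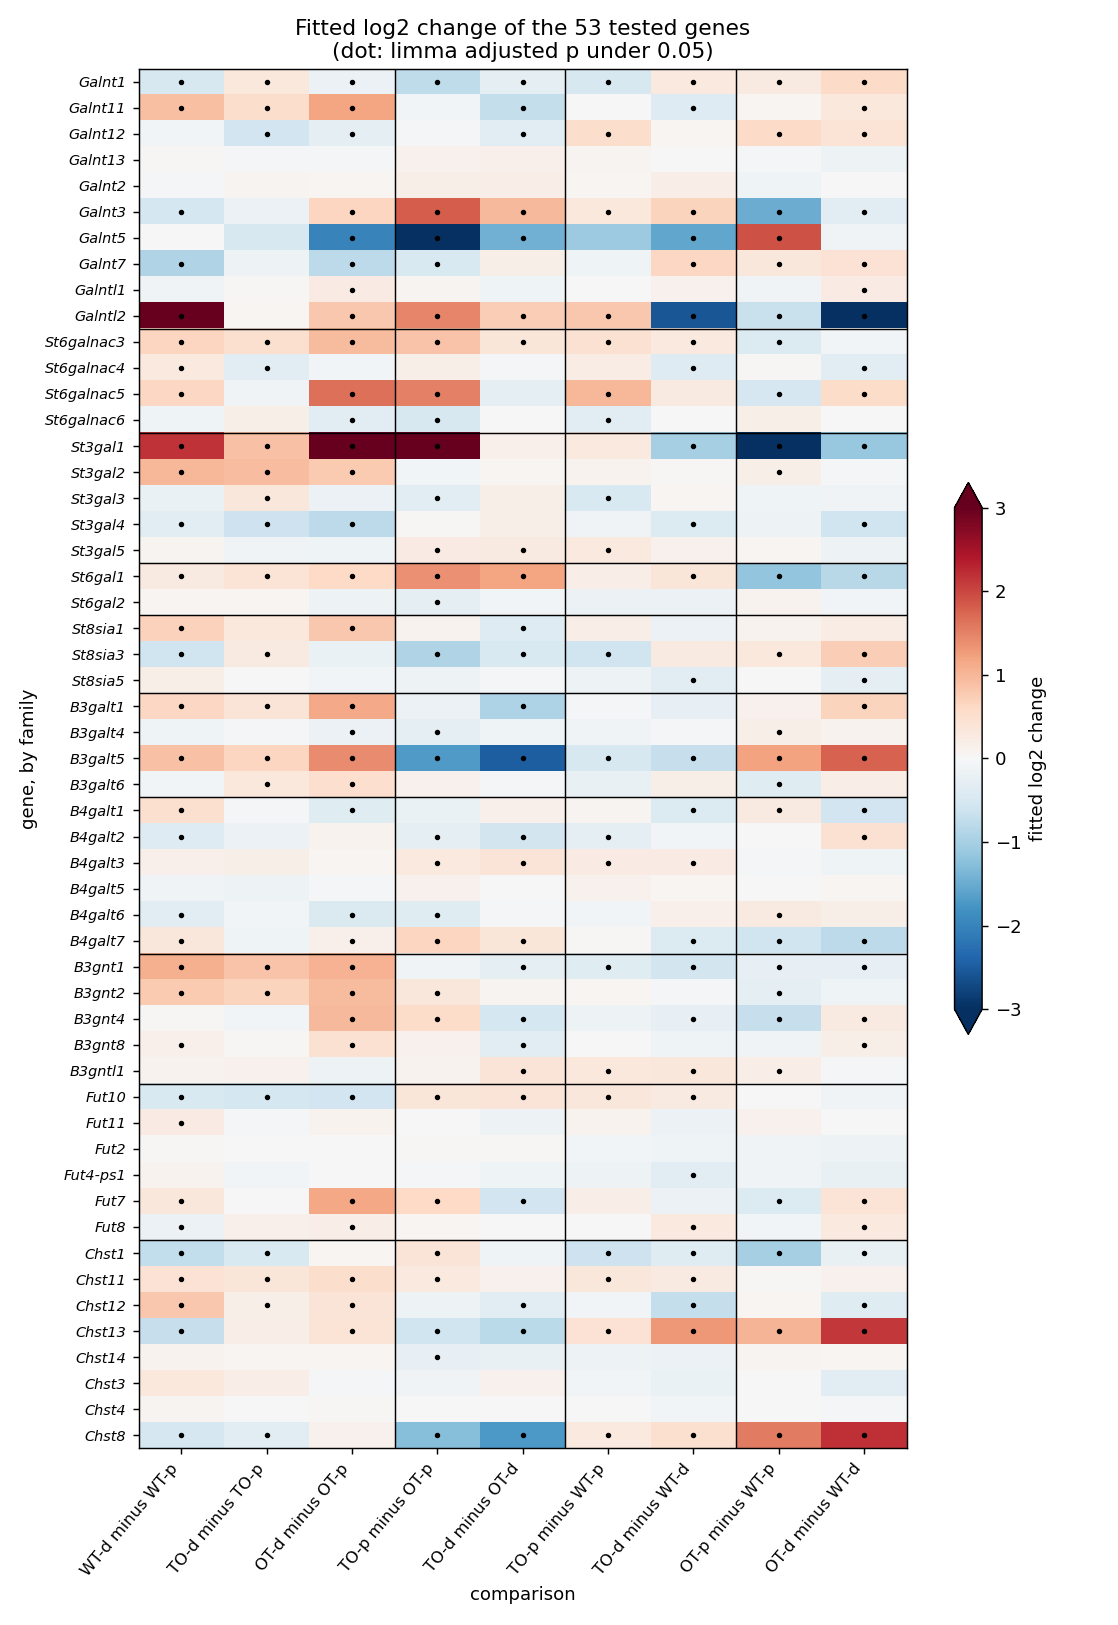
Fitted log2 change (colour, limited to between -3 and 3) of the 53 tested members (rows, grouped by family) in the 9 pairwise comparisons (columns), with a dot where the limma adjusted p was under 0.05. The 3 columns of the medium at left are red for Galnt11, St3gal1, St3gal2, B3galt5, B3gnt1 and B3gnt2, and Chst8 and Chst13 are blue in both TO against OT columns.

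By family, counts are given beside the shares of all genes that rose or fell with the medium, which were 35.9% and 30.8% in WT, 26.5% and 25.9% in TO and 36.4% and 31.1% in OT. The 6 tested B4galt genes had 0 calls with the medium in TO, where 52.4% of all genes were called, and 4 in WT and 3 in OT, none over 2-fold. Of the 5 tested B3gnt genes, 3 rose in WT, 2 in TO and 4 in OT with none falling, with median log2 changes of 0.16, 0.13 and 0.94. Of the 10 tested Galnt genes, 2 rose and 3 fell in WT, 2 and 1 in TO, and 4 and 4 in OT. Of the 8 tested Chst genes, 2 rose and 3 fell in WT, 2 and 2 in TO, and 3 and 0 in OT. In all, 6 members were called in no pairwise comparison: B4galt5, Chst3, Chst4, Fut2, Galnt13 and Galnt2.

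Genes that supply or remove these sugars were counted from lists of related pathways, to be read against the same shares of all genes. The enzymes of glycan removal, most of them lysosomal, rose more often than they fell with the medium: 10 of 13 rose and 0 fell in WT, 8 rose and 1 fell in TO, and 10 rose and 0 fell in OT, with median log2 changes of 0.61, 0.35 and 0.47 beside 0.06, 0.00 and 0.04 for all genes. Among them was the sialidase Neu1, up 4.28-fold in WT, 1.78-fold in TO and 3.65-fold in OT (limma adjusted p = 2.59e-13, 5.53e-07 and 1.38e-13). In proliferation medium 10 of the 13 were higher and 1 lower in TO compared with OT (30% and 26.3% of all genes). Under 5 other scalings the counts of those rising with the medium were 8 to 13, 8 and 9 to 11 in the 3 lines. Of the 20 tested genes of sugar donor synthesis, 6 were higher and 7 lower in TO-p compared with OT-p, against those same shares. With the medium, 3 of the 20 rose and 7 fell in WT, 5 and 9 in TO, and 6 and 6 in OT. Among those that fell was Ugdh, which makes UDP-glucuronate, by 1.64-fold in WT, 2.38-fold in TO and 2.53-fold in OT.

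The CMP-sialic acid transporter Slc35a1 was higher in OT than in WT, 1.35-fold in proliferation and 1.99-fold in differentiation medium (adjusted p = 6.2e-06 and 1.2e-10), among 9 tested Golgi transporters of which 4 were higher and 2 lower in proliferation medium (20.6% and 24.1% of all genes) and 3 higher and 1 lower in differentiation medium (26.6% and 25.2%). C1galt1 and its chaperone C1galt1c1, which together make the core 1 chain that St3gal1 caps, stood 1.61-fold and 1.91-fold below OT-p in TO-p (adjusted p = 6.76e-07 and 1.26e-08). Of the 12 tested genes of their list, O-glycan cores and other O-linked sugars, 4 were higher and 5 lower in TO-p (30% and 26.3% of all genes). In N-glycan branching, 6 of 11 genes rose with the medium in each line, and 3, 0 and 2 fell in WT, TO and OT, with Mgat3, which adds the bisecting GlcNAc, up 1.8-fold, 1.46-fold and 2.63-fold. Of 21 glycosaminoglycan genes, 12 rose and 3 fell in WT, 9 and 4 in TO and 12 and 4 in OT, the heparan sulfotransferase Hs6st1 by 2.78-fold, 2.17-fold and 2.31-fold. All 3 glycolipid genes tested rose in WT, and 1 rose in TO and 2 in OT, with B3galnt1, which extends globosides, among those that rose in each line. The 3 tested carriers of polysialic acid moved in both directions, with 0 rising and 1 falling in WT, 1 and 1 in TO, and 1 and 2 in OT. Ncam1 fell with the medium by 2.9-fold in WT, 1.48-fold in TO and 1.3-fold in OT (adjusted p = 6.65e-13, 3.68e-06 and 0.000172). Cadm1, a synaptic adhesion molecule, rose 2.24-fold in TO and 2.2-fold in OT (adjusted p = 6.61e-08 and 1.8e-08), and Nrp2, a semaphorin receptor, fell 2.61-fold in OT (adjusted p = 8.76e-14).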

How the data were processed

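The members, the gene lists and the tests were chosen with earlier results of these data known. Per the file headers, each deposited scanner table was written by Agilent Feature Extraction and holds raw intensity, the mean and median signal and local background of every spot in both dyes, and its processed signals. The deposited table of the series, also linear intensity, has column medians of 102 to 108. Each column correlates with its own dye's scanner values at 0.9986 or more and with the array's other dye at 0.9979 or less. Its direction and scale are thus known, and its exact normalization is not given in the sources used here.

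In R with limma, 1639 control spots and 0.444% of spot values with an outlier mark were left out, and 1.81% of local backgrounds with such a mark were replaced by the array's median for that dye. No spot was saturated. Background was corrected by normexp (offset 50), dyes were normalized by loess within and Aquantile between arrays, and spots were averaged per probe. The 2 channels of an array entered the fit separately, at an intraspot correlation of 0.452, a mean for each group and a dye term (17 residual and 5.12 prior degrees of freedom), in 1 fit of all 24 samples. Fitted changes can differ from differences of group means. The fit was tested on simulated data. Genes of related lists were named by size, at most 4 per comparison, and members with all values when called at a log2 change of 1 or more. Probe positions are those of the files. Replicate numbers did not pair samples: over 60 pairs of samples with the same number the median correlation of deviations was -0.02, and 15 exceeded 0.1.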

Additional observations from a re-analysis of the deposited data

Results flagged for a closer look

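In 6 of 84 groups of 4 samples, 1 sample stood far from the other 3, and chance gives this in about 1 group of 20. Galnt5 was 9.78 in WT-d replicate 2, against 7.79 to 8.13 in the others, and 7.17 in OT-d replicate 3, against 9.37 to 9.45. These samples shared an array. B3galt1 was 11.24 in WT-d replicate 2 against 10.89 to 10.92. B3galt5 was 8.96 in OT-d replicate 3 against 9.43 to 9.52. B3gnt1 was 10.91 in TO-d replicate 4 against 11.20 to 11.26. Chst1 was 7.67 in WT-p replicate 2 against 7.18 to 7.23.

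The response to the differentiation medium differed between lines for 12 of the 14 members, by limma's test of the difference, in log2 units. The 14 were chosen from these data for a 2-fold change in a pairwise comparison, the medium comparisons included. The 12 are therefore no measure of how often responses differ. Over all 53 members the share was 35.8% between TO and OT, 26.4% between TO and WT and 39.6% between OT and WT. The shares of all genes were 40.3%, 36.5% and 35%. The response of TO less that of OT was -0.76 for B3galt1, -0.77 for B3galt5, -0.52 for Chst1, -0.45 for Chst8, -1.18 for Fut7, -0.64 for Galnt11, -0.84 for Galnt3, -3.55 for St3gal1 and -1.78 for St6galnac5. B3galt5 was above background in 0 of 4 TO-p samples, so its value has no exact size, and it ran from -0.82 to 1.22 over the other signals, normalizations and fits. Chst1 was above background in 1 of 4 samples of TO-d and of OT-p, and its value ran from -1.87 to -0.48.

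Against WT, the TO response differed by 0.89 for Chst13, -3.38 for Galntl2, -1.27 for St3gal1 (adjusted p = 0.043) and -0.74 for St6galnac5. The OT response differed from that of WT by 0.53 for B3galt1, 0.79 for Chst1, 1.1 for Chst13, 0.63 for Chst8, 0.82 for Fut7, 1.18 for Galnt3, -2.02 for Galnt5, -2.63 for Galntl2, 2.28 for St3gal1 and 1.04 for St6galnac5. For Galnt5 the difference was -1.64 (adjusted p = 0.0502) without WT-p replicate 2, -1.05 (adjusted p = 0.0836) without OT-d replicate 3, and -0.94 (adjusted p = 0.166) without WT-d replicate 2. For St3gal1 the difference of TO and WT ran from -1.63 to -0.73 when 1 sample was left out and lost its call in 9 such fits. For B3galt5 the difference of TO and OT ran from -0.96 to -0.53 and lost its call without TO-p replicate 2 or TO-d replicate 4. For Chst8 it ran from -0.50 to -0.41 and lost its call without TO-p replicate 2. With processed signals the calls were also lost for Chst8 and B3galt5 (TO less OT) and for Galnt5 (OT less WT). Without the samples marked b, these calls and that of St6galnac5 (TO less WT) were lost. The St3gal1 call (TO less WT) was lost with processed signals, loess alone, no filter and the mean of a gene's probes. It was also lost with the slide as a covariate and with a replicate block.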

How the results depend on the processing

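The counts of members called stayed within 1.5 times their value under the other signals, normalizations and filters, with a dye term left out and with the slide as a covariate. Without the 6 samples marked b, the count for TO-d against WT-d fell from 27 to 17 and that for the difference of the TO and OT responses from 19 to 12. The share of all genes is not given for this smaller fit or for those below that left out 1 sample. The falls are therefore not shown to be particular to these members or to the b tubes. Leaving out 1 sample gave 27 to 30 calls for TO-p against OT-p, 20 to 25 for TO-d against OT-d, 21 to 26 for TO-d against WT-d, 18 to 26 for OT-p against WT-p, 23 to 28 for OT-d against WT-d, 28 to 31, 15 to 20 and 29 to 34 for the medium in WT, TO and OT, and 15 to 21, 12 to 17 and 18 to 26 for the differences of responses between TO and OT, TO and WT, and OT and WT. For TO-p against WT-p it gave 13 to 24 in place of 20, with 13 without TO-p replicate 1. A replicate block, fitted without the dye term because replicates 1 and 2 were always Cy5, gave 29 calls for TO-p against OT-p and moved no count by over 1.5 times. The replicate numbers name no shared source, and 1 of 24 samples correlated best with a sample of its own number. The response of B3galt5 in TO less that in OT, -0.77, was 1.22 (adjusted p = 0.146) with the scanner's processed signals, and the cause was not tested. Of 99 pairwise calls of the 14 members, 93 kept their sign on every slide that held both groups. The exceptions were TO-p against WT-p for B3galt5, Galnt3 and Galntl2, OT-p against WT-p for Galntl2, and TO-d against WT-d for Galnt11 and St6gal1. The groups were spread unevenly over the slides. OT-d and WT-d shared only slide 3, which held 1 WT-d sample, replicate 2, so calls between them had 1 slide to be compared on. TO-d shared 2 slides with OT-d and 2 with WT-d, as did the 2 media in WT and in OT. The other pairs of groups shared 3. The count of 93 is therefore no measure of consistency over all 3 slides. With loess alone, the shares of higher calls were 36.8% in place of 26.3% for the TO less OT responses and 83.3% in place of 42.9% for TO less WT. With processed signals the share was 65.2% in place of 76.2% for OT less WT.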
